A study of Mus musculus with 6 samples.

Results

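Corticothalamic projection neurons, the cortical neurons whose axons end in the thalamus, were compared between postnatal day 6 (P6) and postnatal day 3 (P3) in the mouse. The comparison uses 4 of the 6 arrays of the series, chosen by the stage in the sample titles: 2 arrays of P6 neurons and 2 of P3 neurons. The other 2 arrays, from embryonic day 18 (E18), serve only to show the level of a gene at that stage. On them the 16 tested proliferation genes averaged 11.72 and 11.75 log2 units, against 7.30 to 7.61 on the P3 and P6 arrays. The 13 tested progenitor genes averaged 10.60 and 10.59 at E18, against 7.53 to 7.86. The part of dividing cells in the E18 level of other genes was not tested. All animals were wild-type C57BL/6 mice. Green fluorescent microspheres were placed in the thalamus at P1 for the P3 group and at P4 for the P6 group, so that beads taken up by axon endings marked the cell bodies, and cortex was collected 2 days later in both groups. Sorted, bead-containing cells gave the RNA. For E18, beads were placed at E17.5 and cortex was taken at E18.5. Whether a stage was sampled from more than 1 litter or sort is not stated in the labels. P-values therefore measure only the spread between these arrays, which may be technical.

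Corticothalamic neurons lie mainly in layer 6 of the cortex and return signals to the thalamic nuclei that drive the same cortical area. Between P3 and P6 in the mouse, their axons are in the thalamus and synapses are forming on and from them. Neurons of this age exchange immature receptor and channel subunits for mature ones, raise chloride export, and move from growth toward transmission.

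The P3 arrays were less alike than the rest, and this bears on every result. Across all probe sets, P3 replicate 1 differed from P3 replicate 2 by more than 2-fold at 3664 probe sets. It differed from P6 replicate 1 at 2044 and from P6 replicate 2 at 1572, so it was closer to either P6 array than to its own partner. P3 replicate 2 also had the narrowest spread of log2 values (SD 1.85, against 2.03 on P3 replicate 1, 2.05 on P6 replicate 1 and 2.10 on P6 replicate 2). The 18S ribosomal RNA probe sets averaged 11.83 and 14.22 log2 units on P3 replicates 1 and 2, and 13.92 and 11.33 on P6 replicates 1 and 2, so the high value occurred once in each stage. For the Actb control, the 3' probe set exceeded the 5' one by 1.19 and 1.76 on the P3 arrays. On the P6 arrays it did so by 1.06 and 0.82. For the Gapdh control this excess was 2.55 and 1.68 on the P3 arrays, and 2.08 and 1.79 on the P6 arrays. Among the P3 and P6 arrays, P3 replicate 2 thus had the largest excess by Actb and the smallest by Gapdh. The part of these differences in the results was not tested.

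The size of the difference between the stages went with the brightness of a gene and with the P3 array used. The median P6 minus P3 change was -0.05 log2 units in the dimmest of 4 equal bins of tested genes and 0.33 and 0.31 in the brighter 2 bins. Leaving out P3 replicate 2 brought those medians to 0.09 and 0.06, and leaving out P3 replicate 1 instead brought them to 0.58 and 0.55. After quantile normalization of the 4 arrays they were 0.08 and 0.01. Over all tested genes the median was 0.15 as deposited, 0.02 after quantile normalization and -0.11 with each array centred on its median. Counts of genes are therefore given for the deposited values and for the genes that kept their direction under all 3 scalings.

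**Figure D1:**
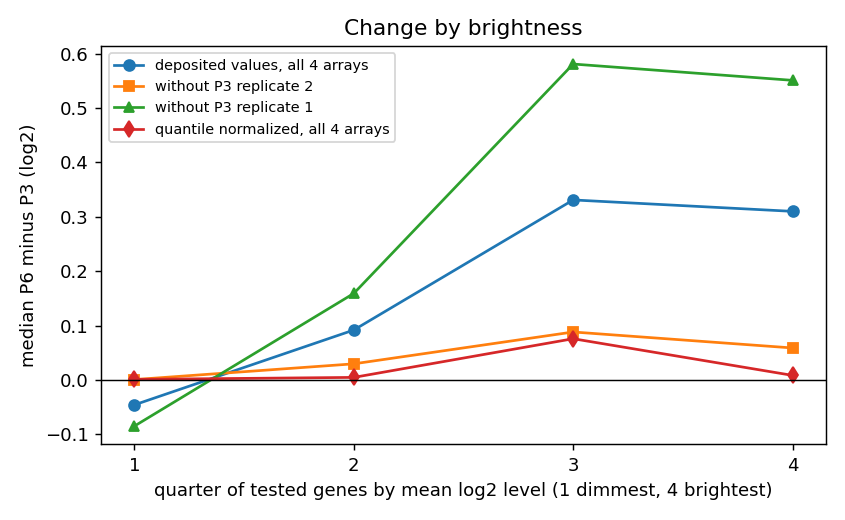
Median change from P3 to P6 (log2 units, vertical axis) in 4 equal bins of the 13645 tested genes ordered by mean level (horizontal axis), for 4 ways of making the comparison. Medians of the brighter bins reach 0.33 with the deposited values and 0.58 when P3 replicate 1 is left out, and stay at or under 0.09 after quantile normalization or without P3 replicate 2.

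No single gene passed the test between P3 and P6. Limma, fitted on the 4 arrays, called 0 of 13645 genes at an adjusted p under 0.05 (0% called), and 1681 genes had an unadjusted p under 0.05, of which 1409 were higher (10.3% of those tested) and 272 lower (1.99%) at P6. The smallest adjusted p was 0.153. With 1 array left out, the fit has 1 residual degree of freedom and the lone array is assumed to vary like the pair of the other stage. Without either P6 array, limma also gave genes of like brightness a shared variance, which disregards the spread of each gene. The count was then 0 without P3 replicate 2, 971 without P3 replicate 1, 120 without P6 replicate 1 and 55 without P6 replicate 2. Limma on all 6 arrays also called 0 genes, with 2711 at an unadjusted p under 0.05. What follows describes genes whose groups did not overlap, which is a description and not a call. In it, above means that both P6 arrays exceeded both P3 arrays, and below the reverse.

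Both P6 arrays stood above both P3 arrays for 4093 genes, 30.0% of those tested, and below them for 1872 genes, 13.7%. Of these, 68.6% were higher at P6. That share was 52.9% after quantile normalization (3234 above, 2879 below) and 42.5% with centred arrays (2616 above, 3541 below), so the balance of higher and lower genes turns with the scaling. Under all 3 scalings 2469 genes (18.1%) stood above and 1750 (12.8%) below. Against P3 replicate 1 alone, 37.0% of genes had both P6 arrays above and 30.1% had both below. The gap between the groups, meaning the distance from the nearest P6 array to the nearest P3 array, exceeded 1 log2 unit for 122 genes above and 7 below. It was under 0.1 log2 units for 949 of the genes above and 703 of those below.

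The 12 genes that stood furthest above at P6 included an enzyme, an anion exchanger, a channel subunit and a semaphorin gene. Ache encodes acetylcholinesterase, which breaks down acetylcholine. It stood at 7.23 and 7.09 log2 units at P3 and at 9.08 and 9.81 at P6, a 4.86-fold difference in signal (2.28 ± 0.38 log2 units, SE, limma adjusted p = 0.153). Both P6 arrays lay at least 1.85 log2 units above either P3 array, the widest gap among the genes named here, and the E18 mean was lower still at 5.89. Rasl10a, a Ras-like small GTPase gene, stood at 6.59 and 6.88 at P3 and at 8.64 and 10.18 at P6 (2.67 ± 0.46, limma adjusted p = 0.153). Its 2 P6 arrays differed from each other by more than the P3 arrays did, yet both were above them.

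The silent potassium channel subunit gene Kcnf1 stood at 6.98 and 6.56 at P3 and 8.62 and 8.80 at P6, and its E18 mean was 5.29, so its level stepped up at each stage. Slc4a3, an anion exchanger gene, stood at 9.13 and 8.89 at P3 and at 10.80 and 10.83 at P6. Cx3cl1 encodes fractalkine, a neuronal chemokine read by microglia. Its brightest probe set stood at 8.73 and 8.47 at P3 and 10.38 and 10.65 at P6, and 3 of its 4 probe sets showed both P6 arrays above both P3 arrays. Sema5b, a transmembrane semaphorin gene, went the other way first: its E18 mean was 10.28, P3 was 6.75 and 5.90, and P6 was 9.04 and 8.28. Apoe, the lipid carrier made largely by astrocytes in brain, had the same course, from 11.78 at E18 to 6.87 and 7.27 at P3, then 8.77 and 10.46 at P6. Also in this set were Cracdl, Mtfp1 (mitochondrial fission), Fibcd1, Ankrd63 and the kinase gene Dapk3, with differences from 1.60 (Mtfp1) to 2.38 (Cracdl) log2 units. All 12 kept non-overlapping groups after quantile normalization.

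Several of the genes that stood furthest below had their highest mean level at P3. Rorb encodes a nuclear receptor that marks layer 4. It stood at 8.68 and 8.35 at P3 and at 6.40 and 6.86 at P6, 3.68-fold lower in signal (-1.88 ± 0.33 log2 units, limma adjusted p = 0.153). The P6 values returned to near the E18 mean of 7.03, and all 3 of its probe sets had both P6 arrays below both P3 arrays. Dusp6, a phosphatase that switches off ERK kinases, went from 6.04 at E18 to 9.23 and 8.83 at P3 and back to 7.55 and 7.35 at P6 (-1.58 ± 0.36, limma adjusted p = 0.189). Masp1, a protease gene of the lectin pathway of complement, stood at 9.61 and 9.56 at P3 and at 8.13 and 7.75 at P6 (-1.64 ± 0.38). That is its brightest probe set of 5, of which 2 had both P6 arrays below.

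Smaller gaps were found for the other genes of this set. Xrn2, a nuclear exoribonuclease gene, stood at 9.80 and 9.95 at P3 and at 8.13 and 8.65 at P6. Only 1 of its 3 probe sets showed the difference, and the others differed by 0.05 and 0.19. Tgfbr1, the type I receptor gene of TGF-beta, stood at 10.49 and 10.21 at P3 and at 9.12 and 9.19 at P6. Adarb2, of the RNA-editing enzyme family, Adamts20, a secreted protease gene, and Kdm5a, a histone demethylase gene, differed by -1.11, -1.13 and -1.33. For Kdm5a 3 of 6 probe sets were lower and 1 was higher. Tiparp, Scaf11, Jade1 and Slco5a1 differed by -1.52, -1.44, -1.23 and -1.58. For Scaf11 1 of 4 probe sets was lower and 1 was higher. The limma adjusted p of the 12 genes lay between 0.153 and 0.265.

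**Figure D2:**
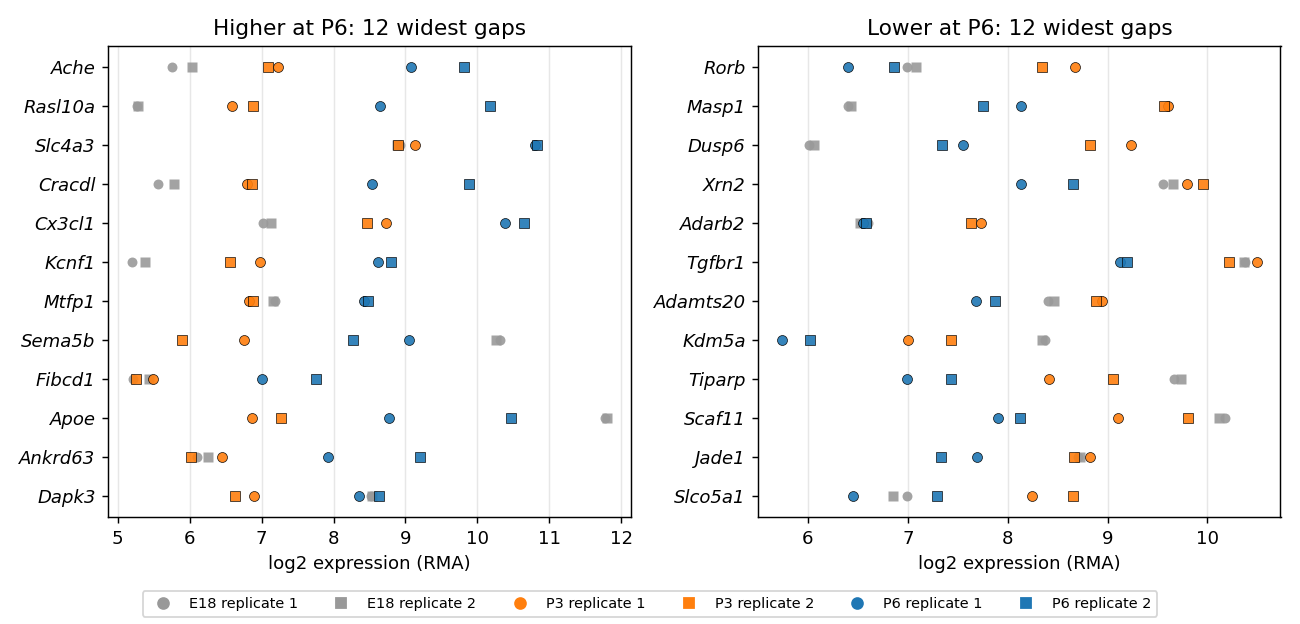
Log2 expression (horizontal axis) of the 12 genes with the widest gap in each direction on each array: grey E18, orange P3, blue P6, circles replicate 1 and squares replicate 2. Blue and orange points do not overlap for any gene shown, because that is how they were chosen, and Rorb and Dusp6 return at P6 toward their E18 level.

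The stretches of genome just upstream of the start sites of 4 of these genes are given so that the pair higher at P6 can be set beside the pair lower at P6. They are the 250 bases before the outermost RefSeq start, from the RefSeq promoter table of build GRCm38.p6, with CG dinucleotides in capitals. The Ache stretch is chr5:137288004-137288253 on the + strand, that of Rasl10a chr11:5057878-5058127 on the + strand, that of Rorb chr19:19111197-19111446 on the - strand and that of Dusp6 chr10:99262981-99263230 on the + strand.
Ache: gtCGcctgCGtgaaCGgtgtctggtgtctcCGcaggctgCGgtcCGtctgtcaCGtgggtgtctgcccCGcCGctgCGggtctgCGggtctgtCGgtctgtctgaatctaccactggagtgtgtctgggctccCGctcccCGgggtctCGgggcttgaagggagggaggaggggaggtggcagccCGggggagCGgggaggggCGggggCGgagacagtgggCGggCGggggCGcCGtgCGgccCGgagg
Rasl10a: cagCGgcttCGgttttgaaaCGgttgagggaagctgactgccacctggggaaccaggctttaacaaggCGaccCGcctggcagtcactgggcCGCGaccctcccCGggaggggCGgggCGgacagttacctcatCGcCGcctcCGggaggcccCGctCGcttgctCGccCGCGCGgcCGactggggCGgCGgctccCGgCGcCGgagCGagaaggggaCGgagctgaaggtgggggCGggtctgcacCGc
Rorb: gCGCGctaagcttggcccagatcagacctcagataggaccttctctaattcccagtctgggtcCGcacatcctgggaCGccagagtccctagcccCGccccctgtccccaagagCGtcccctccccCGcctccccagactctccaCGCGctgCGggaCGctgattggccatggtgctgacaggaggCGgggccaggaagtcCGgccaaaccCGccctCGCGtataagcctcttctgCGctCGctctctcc
Dusp6: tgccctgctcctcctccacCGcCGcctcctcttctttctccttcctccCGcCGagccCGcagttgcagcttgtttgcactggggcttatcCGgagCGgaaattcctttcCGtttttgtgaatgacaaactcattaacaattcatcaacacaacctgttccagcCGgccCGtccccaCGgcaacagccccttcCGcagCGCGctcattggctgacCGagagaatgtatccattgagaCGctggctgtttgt
They hold 25, 29, 18 and 16 CG dinucleotides, with G or C at 73.6%, 72.4%, 66.0% and 56.4% of bases. All 4 lie above the median of 15 CG over the 10966 tested genes with a promoter in the table. Over all genes below at P6 the check was void, because 79.8% of them had a promoter in the table, under the 80% set as the minimum. Within the brightest bin, where the table held 81.2% and 82.5%, the median was 17 CG for genes above and 19 for genes below. Other contrasts that met the minimum did not share this order. The medians were 15 and 15 after quantile normalization, and 15 and 15 against P3 replicate 1 alone. For gaps over 0.5 log2 units they were 16 above and 14 below.

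Genes that define corticothalamic and layer 6 neurons stood on both sides. Of 28 tested members, 8 stood above at P6 (28.6%) and 5 below (17.9%), near the shares over all genes. Under all 3 scalings 4 and 5 kept their direction. Of the 28, 20 lay in the brightest bin, where 39.1% of genes stood above and 7.21% below. The median change was 0.28 (all tested genes 0.15), 0.13 without P3 replicate 2 (all genes 0.04) and -0.03 without P6 replicate 1 (all genes 0.15). The summed linear signal of the list was 15.58 and 15.25 log2 units at P3 and 15.61 and 15.44 at P6, against 14.59 and 14.64 at E18. The markers of the labelled cell type were thus bright at both stages, and 1 of 29, Cdh18, was under the lower quartile of all 4 arrays.

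The layer 6 regulators overlapped or nearly overlapped between the stages. Tbr1, which specifies layer 6 fate, stood at 9.98 and 9.03 at P3 and 10.23 and 9.88 at P6. Tle4, a corepressor gene of corticothalamic neurons, stood at 12.16 and 11.68 and then 12.41 and 12.16. Zfpm2, a cofactor gene, stood at 10.35 and 9.55 and then 10.36 and 10.59, and Sox5, a timing factor of deep-layer neurons, at 11.10 and 11.19 and then 11.67 and 10.90, with its direction turned after quantile normalization or centring and 3 of its 7 probe sets below. Foxp2 stood at 11.50 and 11.20 and then 11.29 and 10.65, and 3 of its 6 probe sets had both P6 arrays below. Fezf2, which directs deep-layer identity, stood at 10.11 and 9.61 and then 10.05 and 10.94. None of these 6 genes passed the test, with limma adjusted p from 0.576 to 0.913.

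Bcl11b, a transcription factor gene of deep-layer projection neurons, could not be given 1 direction. Its brightest probe set over these arrays stood at 11.86 and 11.89 at P3 and 11.31 and 11.23 at P6 (-0.60 ± 0.31). Another, about as bright, stood at 11.47 and 10.17 and then 12.01 and 11.89, a change of 1.13. The remaining 2 differed by -0.32 and -0.28 with overlapping groups.

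Other genes of the list stood further apart. Crym, a thyroid hormone binding protein, stood at 10.45 and 9.38 at P3 and 11.18 and 11.40 at P6 (1.38 ± 0.42, limma adjusted p = 0.249). Garnl3 stood at 9.91 and 9.17 and then 11.16 and 11.38, and Lpl, encoding lipoprotein lipase, at 9.35 and 9.20 and then 10.89 and 10.54. Ntsr1, the neurotensin receptor gene used to mark layer 6, stood at 10.24 and 9.39 and then 10.89 and 10.27, a gap of only 0.03. Ptn, encoding the growth factor pleiotrophin, was lower, from 9.55 and 10.24 to 8.09 and 8.81, after 12.41 at E18. Syt6, a synaptotagmin gene, overlapped fully, at 7.03 and 8.40 and then 7.62 and 7.69.

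Subplate and layer 6b genes mark the deepest cortical neurons. Of 16 members, 5 stood above (31.25%, against 30.0% of all tested genes) and 1 below (6.25%, against 13.7%). The same 6 did so under all 3 scalings, where the shares over all genes were 18.1% and 12.8%. Ccn2 stood at 7.07 and 5.99 at P3 and at 7.80 and 8.05 at P6, still under its E18 mean of 10.13. Nr4a2 stood at 8.41 and 7.50 and then 8.69 and 11.45, so its difference rested largely on P6 replicate 2. Its 6 probe sets were split, with 3 above and 1 below. Pappa2, encoding a protease of insulin-like growth factor binding proteins, was lower, from 9.97 and 9.19 to 8.70 and 7.98. Subcerebral layer 5 genes had 2 of 17 members above (11.8%) and 5 below (29.4%), and 1 and 5 under all 3 scalings. Bcl11b, whose probe sets disagreed, is counted among the 5 below here and also among those below in the corticothalamic list. Among those below, Crim1 stood at 9.08 and 9.15 and then 8.51 and 8.17. Tcerg1l stood at 10.10 and 10.32 and then 9.68 and 8.70. Of 24 callosal, upper layer and layer 4 genes, 7 stood above (29.2%) and 6 below (25%), and 6 and 6 under all 3 scalings. Plxnd1, a semaphorin receptor gene, stood at 6.30 and 6.41 and then 7.40 and 9.07, opposite to Rorb.

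**Figure D3:**
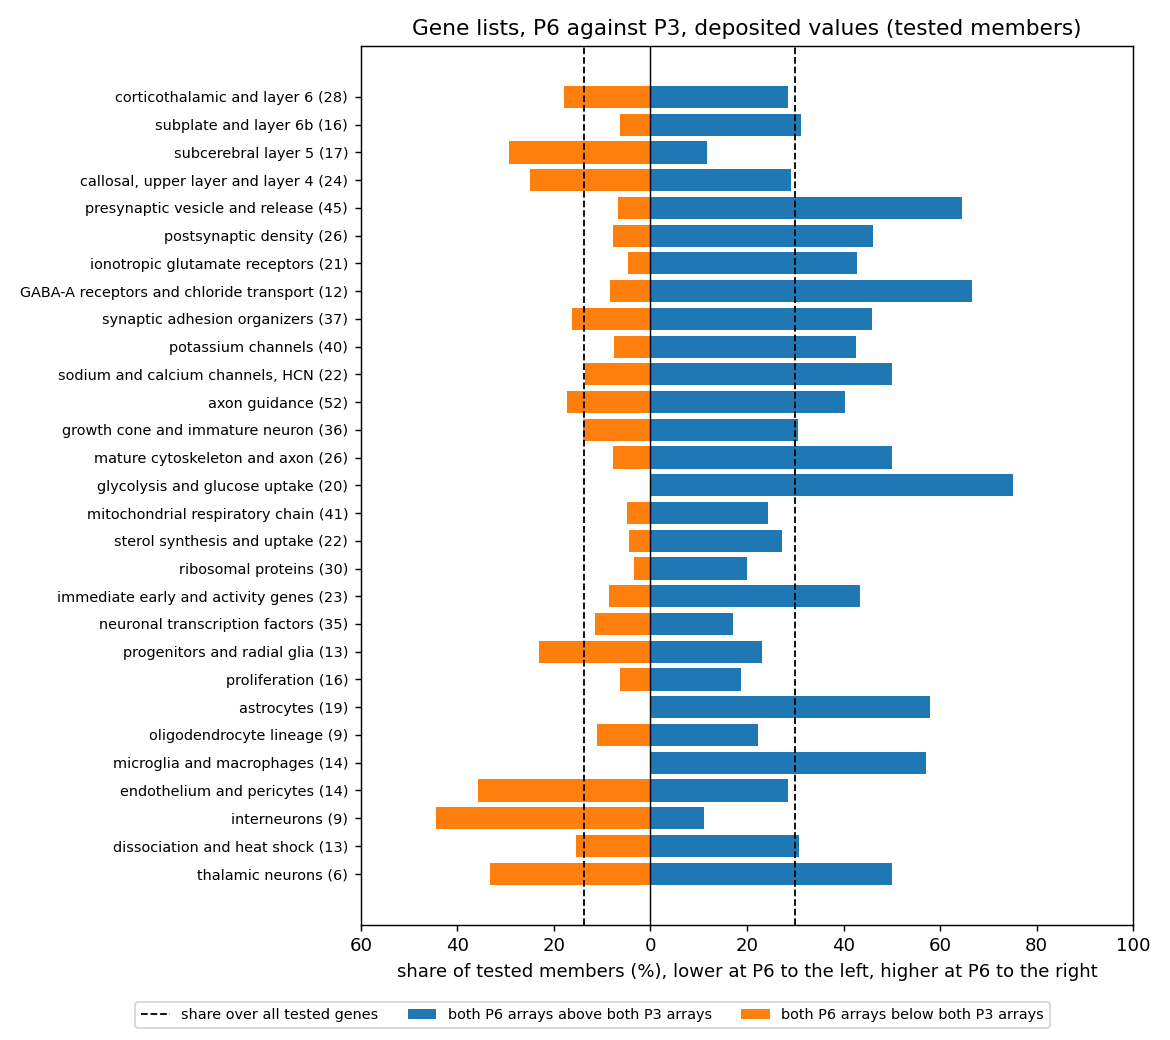
Share of tested members of each gene list (percent, horizontal axis; tested members in brackets) with both P6 arrays above (blue, right) or below (orange, left) both P3 arrays in the deposited values, with dashed lines at the shares over all tested genes, 30.0% and 13.7%. Glycolysis (75%), GABA-A receptor and chloride transport (66.7%) and presynaptic genes (64.4%) extend furthest to the right, and interneuron markers (44.4%) furthest to the left.

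Genes of transmitter release were more often higher at P6. Of 45 presynaptic genes, 29 stood above (64.4%, against 30.0% of all tested genes) and 3 below, and 17 and 3 did so under all 3 scalings, where the shares over all genes were 18.1% and 12.8%. The median change was 0.40, or 0.31 without P3 replicate 2 (all genes 0.04) and 0.25 after quantile normalization (all genes 0.02). Vamp2, the vesicle SNARE that drives fusion, stood at 10.12 and 9.42 at P3 and 11.16 and 11.09 at P6. Syt13, a synaptotagmin gene, stood at 8.57 and 7.41 and then 9.79 and 10.02. Snph, encoding syntaphilin, which anchors axonal mitochondria, stood at 8.22 and 7.52 and then 9.13 and 9.07, and Bin1, a membrane-bending protein gene, at 8.54 and 7.68 and then 9.36 and 9.57. On all 4 of these genes P3 replicate 2 was the lowest array, and their differences against P3 replicate 1 alone ran from 0.88 (Snph) to 1.33 (Syt13). The 3 members below were Unc13a, which primes vesicles, Erc2, an active zone scaffold gene, and the vesicle GTPase gene Rab3c.

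Postsynaptic density genes had 12 of 26 above (46.2%, against 30.0% of all tested genes) and 2 below (7.69%, against 13.7%) in the deposited values. Under all 3 scalings 6 stood above and 2 below, where the shares over all genes were 18.1% and 12.8%. The median of 0.34 (all genes 0.15) became 0.06 after quantile normalization (all genes 0.02). Arc, the activity-regulated gene that removes AMPA receptors from synapses, stood at 6.01 and 5.21 at P3 and 6.80 and 6.72 at P6. Dlg2 (PSD-93) stood at 9.19 and 7.97 and then 9.58 and 10.04. That is 1 of its 3 probe sets, and the dimmer others differed by -0.32 and -0.30 with overlapping groups. Dlgap3, a scaffold gene, stood at 7.96 and 8.38 and then 8.80 and 9.19. Camk2g, a calmodulin kinase gene, stood at 10.26 and 9.70 and then 10.74 and 11.08.

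Of 21 tested ionotropic glutamate receptor genes 9 stood above (42.9%, against 30.0% of all tested genes) and 1 below. Under all 3 scalings 7 stood above and 1 below, where the shares over all genes were 18.1% and 12.8%. Grin2c, an NMDA receptor subunit of mature neurons and glia, stood at 6.00 and 6.09 at P3 and 7.48 and 8.05 at P6 (1.72 ± 0.29, limma adjusted p = 0.153). Grin3a, a subunit that lowers calcium entry in young synapses and was chosen after its values were seen, stood at 8.81 and 9.52 and then 10.22 and 10.71. Grin2b, the main juvenile subunit gene, stood at 9.82 and 9.78 and then 10.02 and 10.68, but 1 of its 4 probe sets had both P6 arrays below. Grin2a, the subunit that replaces it later, was among the dimmest 25% of all genes and was not tested, with 5.45 and 6.02 on the P3 arrays, then 5.62 and 5.34 on the P6 arrays. The kainate subunit gene Grik5 stood at 9.27 and 9.02 and then 10.27 and 11.09. Cnih2, an AMPA receptor auxiliary gene, stood at 10.07 and 9.25 and then 10.97 and 11.29, and Cacng5, another, at 5.70 and 5.83 and then 6.82 and 8.31. The AMPA subunit gene Gria1, chosen after its values were seen, stood at 7.66 and 6.73 and then 8.01 and 8.34.

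Inhibitory receptor and chloride genes had 8 of 12 tested members above (66.7%, against 30.0% of all tested genes) and 1 below (all genes 13.7%). Under all 3 scalings 5 stood above and 1 below (all genes 18.1% and 12.8%). The median change was 0.63 (all genes 0.15), and 0.51 without P3 replicate 2 (all genes 0.04). Slc12a5 encodes KCC2, which exports chloride and makes GABA inhibitory. It stood at 11.06 and 10.29 at P3 and at 11.71 and 11.59 at P6 (0.97 ± 0.37, limma adjusted p = 0.324), after 8.22 at E18. Slc12a2, the chloride importer NKCC1, stood at 8.48 and 8.24 and then 9.17 and 8.53, and its 3 probe sets disagreed, with 1 above and 1 below.

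Among receptor subunits, Gabra4, a subunit of receptors outside synapses, stood at 6.80 and 5.60 at P3 and 7.98 and 8.15 at P6. Gabrd, its partner in tonic inhibition, stood at 5.81 and 5.63 and then 6.81 and 6.93, with the second of its probe sets going the other way by -0.16. Gabrb1 stood at 10.10 and 9.49 and then 10.85 and 11.12. Gabrb2, a beta subunit gene of the common synaptic receptor, was lower, at 10.91 and 10.95 and then 10.35 and 9.98, and 4 of its 5 probe sets had both P6 arrays below. Gabra2, an alpha subunit gene, stood at 6.72 and 7.39 and then 8.03 and 7.52, while 2 of its 5 probe sets had both P6 arrays below.

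**Figure D4:**
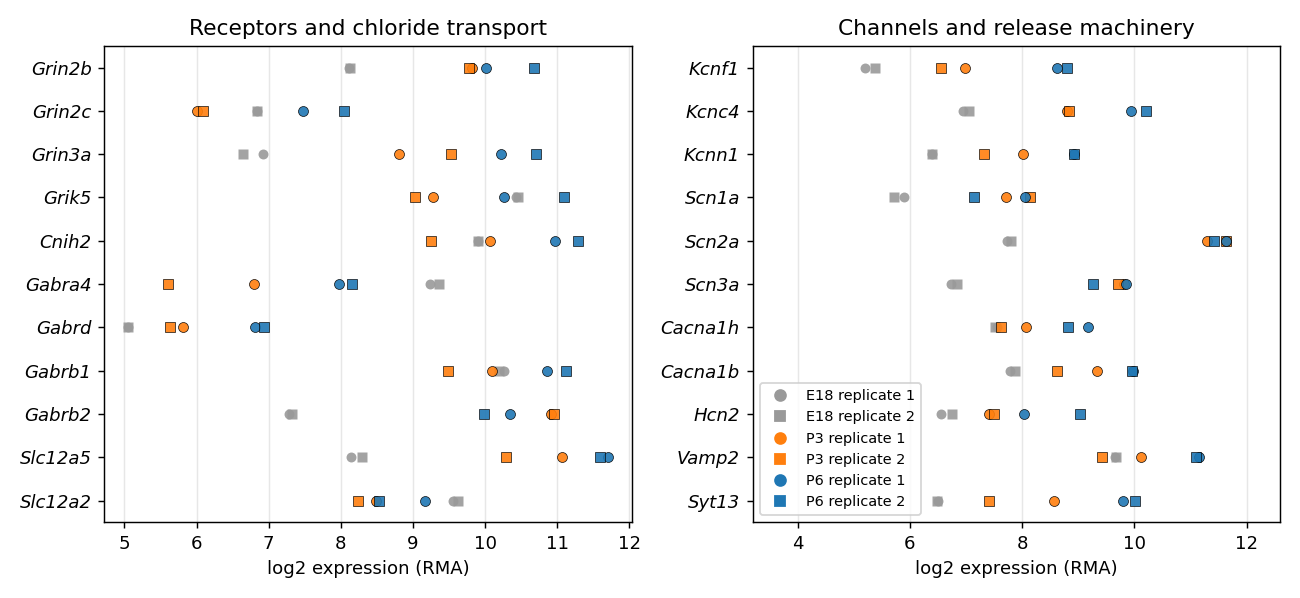
Log2 expression (horizontal axis) of receptor, chloride transport, channel and release genes on each array: grey E18, orange P3, blue P6, circles replicate 1 and squares replicate 2. P6 points lie to the right of both P3 points for Grin2c, Gabra4 and Kcnf1, to the left for Gabrb2, and overlap for Scn1a, Scn2a and Scn3a.

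Potassium channel genes had 17 of 40 tested members above (42.5%, against 30.0% of all tested genes) and 3 below (all genes 13.7%), and 14 and 3 under all 3 scalings (all genes 18.1% and 12.8%). Their median change of 0.28 was 0.32 without P3 replicate 2. Beside Kcnf1, Kcnc4, a fast delayed rectifier gene, stood at 8.79 and 8.83 at P3 and 9.94 and 10.21 at P6. Kcnn1, a calcium-activated channel gene, stood at 8.01 and 7.32 and then 8.93 and 8.92, and Kcnab2, an auxiliary subunit gene, at 6.96 and 6.91 and then 7.75 and 8.41, with its other probe set lower at P6. Sodium, calcium and HCN channel genes had 11 of 22 above (50%) and 3 below (13.6%), and 8 and 3 under all 3 scalings. Scn8a, a sodium channel gene, was among the 8 above. The other sodium channel genes named here overlapped: Scn2a, the juvenile axonal channel, stood at 11.29 and 11.63 and then 11.62 and 11.42 (its direction turned under the other scalings), Scn3a at 9.82 and 9.70 and then 9.85 and 9.26, and Scn1a at 7.72 and 8.14 and then 8.06 and 7.14. Members apart were the T-type calcium channel genes Cacna1h (8.06 and 7.62, then 9.17 and 8.81, with its dim second probe set below) and Cacna1g (9.33 and 8.83, then 10.20 and 9.86). So were the pacemaker gene Hcn2 (7.40 and 7.50, then 8.03 and 9.02) and the N-type gene Cacna1b (9.34 and 8.61, then 9.97 and 9.96). Only 1 of the 4 Cacna1b probe sets was above. The others overlapped, with differences of -0.21 and -0.10 at like brightness and 0.19 in a dimmer one.

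Guidance and adhesion genes went both ways. Of 52 axon guidance genes, 21 stood above (40.4%, against 30.0% of all tested genes) and 9 below (17.3%, against 13.7%). Under all 3 scalings 18 stood above and 9 below (all genes 18.1% and 12.8%). Slit1, a repellent ligand gene, stood at 8.91 and 8.14 at P3 and 10.55 and 10.07 at P6, and Ephb6, a kinase-dead Eph receptor gene, at 9.09 and 8.18 and then 10.21 and 10.46. The members lower under all 3 scalings were the receptor genes Dcc, Robo1, Epha3, Epha7 and Ephb1 and the ligand genes Efnb2, Sema3c, Ntng1 and Ntng2. Synaptic adhesion genes had 17 of 37 above (45.9%) and 6 below (16.2%), and 8 and 6 under all 3 scalings. Lrfn2, which binds PSD-95, stood at 8.34 and 7.43 and then 9.44 and 9.87, Clstn3, a calsyntenin gene, at 8.77 and 8.52 and then 9.59 and 9.76, and Lrrc4b, a netrin-G ligand family gene, at 7.66 and 7.50 and then 8.31 and 8.90. Mdga2, which blocks neuroligin from binding neurexin, was lower, at 10.15 and 10.43 and then 8.66 and 9.36, in 1 of its 2 probe sets.

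Genes of the growing neurite were near the shares over all tested genes, but 35 of the 36 lay in the brightest bin. In that bin 39.1% of genes stood above and 7.21% below. Of 36 growth cone and immature neuron genes, 11 stood above (30.6%, against 30.0% of all tested genes) and 5 below (13.9%, against 13.7%). Under all 3 scalings 6 stood above and 5 below (all genes 18.1% and 12.8%). The median was 0.09, or 0.00 without P3 replicate 2. Dpysl5, Dpysl4 and the axonal adhesion gene Cntn2 were higher by 0.91, 0.75 and 0.77. For Cntn2 only 1 of 4 probe sets was above, and another of like brightness differed by -0.32 with overlapping groups. The second Dpysl5 probe set differed by -0.26 with overlapping groups. Dcx, the microtubule protein of migrating neurons, was lower by its brightest probe set, at 12.40 and 12.54 and then 10.76 and 11.76. Another Dcx probe set, at 6.36 and 10.81 and then 10.04 and 6.43, was high on the 2 arrays with high 18S signal, and the part of 18S in it was not tested. Of 26 genes of the mature cytoskeleton and axon, 13 stood above (50%) and 2 below (7.69%), and 9 and 2 under all 3 scalings. Nefm and Map2 were the 2 below. Thy1, a surface glycoprotein of mature projection neurons, stood at 10.50 and 10.65 at P3 and 11.59 and 12.20 at P6, after 7.30 at E18. Camkv, a kinase-like synaptic protein gene, Sncb, encoding beta-synuclein, and the calcium sensor gene Hpcal4 were higher by 1.04, 0.78 and 1.27.

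Of 20 genes of glycolysis and glucose uptake, 15 stood above (75%, against 30.0% of all tested genes) and 0 below (all genes 13.7%), where limma called 0 and 9 had an unadjusted p under 0.05. Under all 3 scalings 10 stood above (all genes 18.1%), and against P3 replicate 1 alone 16 did and 2 were below (all genes 37.0% and 30.1%). The median was 0.64, or 0.51 without P3 replicate 2 and 0.34 after quantile normalization. Eno2, the neuronal enolase gene, stood at 9.88 and 9.17 at P3 and 10.86 and 11.11 at P6, and Slc2a3, the neuronal glucose transporter gene, at 11.06 and 10.45 and then 11.82 and 11.96, with 1 of its 4 probe sets below. Pfkl, a phosphofructokinase gene, stood at 9.93 and 9.40 and then 10.74 and 10.97. Aldoc, the aldolase made mainly by astrocytes, had the largest difference of the list, from 6.72 and 7.64 to 8.78 and 9.83, and is also counted among the astrocyte markers.

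The respiratory chain, the mitochondrial route to ATP, had other counts. Of 41 tested genes, 10 stood above (24.4%, against 30.0% of all tested genes) and 2 below, and 6 and 2 under all 3 scalings. All 41 lay in the brightest bin, where 39.1% of genes stood above and 7.21% below. On both P6 arrays 12 were below P3 replicate 1, and the median of 0.34 became 0.05 without P3 replicate 2. Atp5b, the catalytic subunit of ATP synthase, stood at 12.46 and 11.22 and then 12.90 and 12.95, so P3 replicate 2 alone was low. Uqcrc1, Ndufv1 and Cyc1 differed by 1.13, 0.62 and 0.65. Sterol synthesis genes had 6 of 22 above (27.3%, all genes 30.0%) and 1 below (4.55%, all genes 13.7%). The same 7 did so under all 3 scalings (all genes 18.1% and 12.8%). Among the 6 above were Mvk (8.53 and 8.32, then 9.57 and 9.61) and Mvd (9.39 and 9.28, then 10.26 and 10.45) of the mevalonate steps. Dhcr7 of the last step and the regulator gene Srebf2 were also among them. Dhcr7 and Srebf2 differed by 1.03 and 0.76. Ribosomal protein genes had 6 of 30 above (20%, against 30.0% of all tested genes) and 1 below, and 3 and 1 under all 3 scalings. In the brightest bin lay 26 of these 30 ribosomal genes. Their median of 0.16 became -0.08 without P3 replicate 2.

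Activity-regulated genes were mixed. Of 23, 10 stood above (43.5%, against 30.0% of all tested genes) and 2 below (8.70%, against 13.7%). Under all 3 scalings 6 stood above and 2 below (all genes 18.1% and 12.8%). Npas4, a transcription factor gene induced by calcium entry, stood at 6.01 and 5.45 at P3 and 6.53 and 7.01 at P6, and Egr4 at 7.91 and 7.97 and then 8.60 and 9.05. Dusp6, described above, was the largest member in the other direction. Among 35 neuronal transcription factor genes 6 stood above (17.1%, against 30.0% of all tested genes) and 4 below (11.4%, against 13.7%), and 3 and 3 under all 3 scalings. Hlf, a PAR-family factor gene, stood at 8.89 and 8.89 and then 9.41 and 10.01. Tcf4 stood at 11.71 and 11.44 and then 12.12 and 12.12 (2 of its 6 probe sets were above and 1 below). Rora, the relative of Rorb, stood at 7.31 and 8.09 and then 7.05 and 7.05 (its 9 probe sets were split, with 1 above and 2 below).

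The summed signals of astrocyte and microglia markers were highest, among postnatal arrays, on P6 replicate 2. In bulk sorted samples, a change in the number of cells of a type cannot be told apart from a change in RNA per cell. Of 19 tested astrocyte markers 11 stood above (57.9%, against 30.0% of all tested genes) and 0 below (all genes 13.7%), with limma calling 0 and 9 at an unadjusted p under 0.05, and 9 stood above under all 3 scalings. The summed signal of the 21 matched markers was 13.23 and 13.10 log2 units at P3 and 13.55 and 14.32 at P6, against 15.37 and 15.40 at E18, and 1 of them, Gjb6, was under the lower quartile of all 4 arrays. Gja1, the astrocyte gap junction gene, stood at 5.96 and 6.12 and then 6.68 and 9.17. Sparc, a secreted matrix protein gene, stood at 7.60 and 8.01 and then 8.52 and 8.82, with 1 of its 3 probe sets below.

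Of 14 tested microglia and macrophage markers 8 stood above (57.1%, against 30.0% of all tested genes) and 0 below (all genes 13.7%), with limma calling 0 and 6 at an unadjusted p under 0.05, and 3 stood above under all 3 scalings. The summed signal of the 18 matched markers was 10.95 and 11.72 at P3 and 11.50 and 12.96 at P6, so the stages overlapped, and 1 marker, Ptprc, was under the lower quartile of all 4 arrays. Csf1r and C1qa, chosen after their values were seen, stood at 8.70 and 10.19 and then 9.55 and 11.34, and at 6.02 and 6.96 and then 7.00 and 9.16. Fcrls stood at 6.53 and 7.00 and then 7.63 and 8.45, and Cd68 at 5.63 and 5.75 and then 6.26 and 7.19. Without P6 replicate 2 the list median was 0.34 for microglia and 0.36 for astrocytes, against 0.88 and 0.73 with all 4 arrays. The part of glial RNA in the neuronal gene groups was not tested. Among the 12 genes with the widest gap above, the level on P6 replicate 2 minus that on P6 replicate 1 was above 0 for 11 and below 0 for 1. It ran from -0.77 (Sema5b) to 1.69 (Apoe), with 1.54 for Rasl10a, 0.73 for Ache and 0.18 for Kcnf1.

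**Figure D5:**
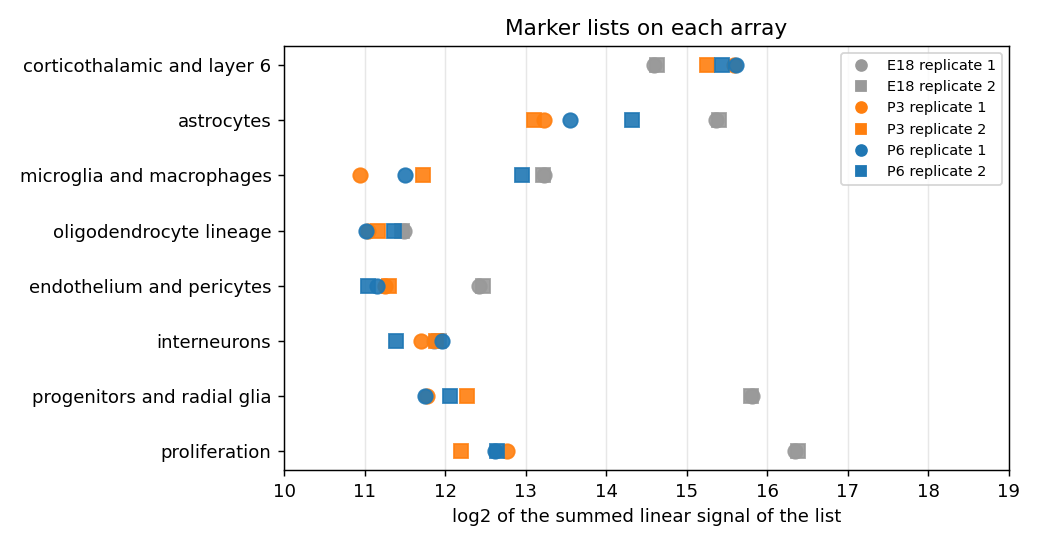
Log2 of the summed linear signal of each marker list on each array (horizontal axis): grey E18, orange P3, blue P6, circles replicate 1 and squares replicate 2. Astrocyte and microglia sums are highest among postnatal arrays on P6 replicate 2 (14.32 and 12.96), and the corticothalamic sum lies between 15.25 and 15.61 on the postnatal arrays and at 14.59 and 14.64 on the E18 arrays.

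Among markers of other cells, interneuron markers had 1 of 9 tested members above and 4 below (all genes 30.0% and 13.7%). Under all 3 scalings 0 stood above and the same 4 below (all genes 18.1% and 12.8%). They were Gad1 (6.70 and 6.79, then 6.28 and 6.41), Npy (10.62 and 10.58, then 10.55 and 10.01), Slc32a1 and Pvalb. The other Gad1 probe set differed by 0.61 with overlapping groups, and 2 of 4 Slc32a1 probe sets were below. Of the 19 matched markers, 5 were under the lower quartile of all 4 arrays. Of 14 endothelial and pericyte genes 4 stood above and 5 below, and 0 and 5 under all 3 scalings, with Acta2, Kcnj8 and Abcc9 among those below. Oligodendrocyte lineage genes had 2 of 9 above and 1 below, and 1 and 1 under all 3 scalings. Olig1 stood at 6.43 and 7.62 and then 8.03 and 8.31, and the 8 probe sets of Mbp, the myelin basic protein gene, were split 4 above and 3 below. Progenitor genes had 3 of 13 above and 3 below, and 2 and 3 under all 3 scalings, with a median change of -0.11. Those 2 above were Hes5 and Vim, the latter at 7.39 and 7.38 and then 8.16 and 8.18. The 3 below were Nes, Tnc and Ptprz1, which differed by -0.58, -0.24 and -1.01. For Nes 1 of 3 probe sets was below and 1 above. Proliferation genes had 3 of 16 above and 1 below, and 0 and 1 under all 3 scalings. Heat shock and dissociation genes had 4 of 13 above and 2 below, and 2 and 1 under all 3 scalings, led by Hspa1a at 6.08 and 6.21 and then 7.05 and 7.66. The lists of Cajal-Retzius cells and of red blood cells had 3 tested members each, with 1 above and 0 below and with 0 above and 1 below (0 and 0, and 0 and 1, under all 3 scalings), and limma had 0 members of either at an unadjusted p under 0.05. The list of thalamic neurons had 3 of 6 above and 2 below, and 2 and 2 under all 3 scalings. Those 2 above were Slc17a6 and Cacna1g, and the 2 below were Rorb and Tcf7l2. Tcf7l2 stood at 7.83 and 8.83 and then 7.31 and 7.28, with 2 of its 4 probe sets below and 1 above. Of the 10 matched members, Gbx2, Prox1 and Zic1 were under the lower quartile of all 4 arrays.

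The length of genome that genes span was set beside their direction, and the order depended on the P3 array used. By the RefSeq gene table of GRCm38.p6, the median span was 20.1 kb for genes above and 25.6 kb for genes below, and 22.3 kb over all tested genes. In the brightest bin it was 22.6 kb above and 50.4 kb below, and in the next bin 20 and 49.3 kb. The order held after quantile normalization (18.4 kb above, 29.0 kb below) and against P3 replicate 1 alone (19.7 and 26.9 kb). It turned against P3 replicate 2 alone (22.2 kb above, 20.9 kb below) and in the dimmest bin (18.2 kb above, 14.8 kb below). Arrays of 1 stage also differed in this feature: genes higher on P6 replicate 1 by over 0.5 log2 units had a median span of 28.7 kb and those higher on P6 replicate 2 one of 19.7 kb. For the P3 pair these medians were 23.1 kb for genes higher on replicate 1 and 17.7 kb for genes higher on replicate 2. Genes are not replicates and no test was made.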

How the data were processed

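RNA of sorted, bead-labelled corticothalamic neurons was hybridised to Affymetrix mouse arrays, and the deposited values are the authors' log2 expression values after RMA (background correction, normalization and probe summary), per the submitters' processing notes. The version and which arrays were run together are not given in the sources used here. Each gene was read from its brightest probe set with exactly 1 symbol, and the dimmest 25% of 18193 genes were left out, which left 13645. P6 was compared with P3 by limma 3.58.1 in R 4.3.3 on 4 arrays, with an intensity trend and Benjamini-Hochberg adjustment at 0.05, after the code was tested on simulated data. With 2 residual degrees of freedom, the number of arrays limits precision. Named genes were the 12 with the widest gap in each direction, up to 4 per gene list by gap, and a fixed set of identity, receptor and channel genes. The members, lists and rule were chosen with earlier results of these data known. Alternatives covered scaling, filters, probe sets, covariates, blocks and left-out arrays.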

Additional observations from a re-analysis of the deposited data

How the results depend on the processing

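Limma called 395 genes with each array centred on its median and 97 with the lowest 50% of genes left out. It called 2 with the 18S level as a covariate and 114 with the hybridization control as a covariate. With all genes as deposited it called 0. With centred arrays and with the hybridization control, limma gave genes of like brightness a shared variance. Those calls thus disregard the spread of each gene. Leaving out 1 array gave 0 to 971 calls. Genes above numbered 2616 with centred arrays and 5052 to 7695 with 1 array left out. Genes below numbered 2879 after quantile normalization, 3541 with centred arrays and 3294 to 4111 with 1 array left out. They were 3096 of 18193 genes with no filter and 884 of 9097 with the lowest 50% left out. Over every probe set, 6803 of 26209 probe sets were above and 4099 below. Leaving out 1 array eases the rule, so those counts can only rise, and a filter changes the number of genes counted. The cause of the other changes was not tested. In the paired fit with the replicate block 174 genes were called, also with a shared variance. Yet the labels' numbers are only numbers: deviations of same-numbered arrays correlated at -0.154. The crossed pairing, chosen after seeing the data, called 183.

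Of 123 genes named with values, 111 kept their direction under every alternative run. Many of them were chosen because their groups did not overlap, and such a gene cannot turn when 1 array is left out. For these genes the runs with an array left out were no check of direction. The brightest probe set over 6 arrays gave 1.13 for Bcl11b and -0.16 for Gabrd. The mean of all probe sets gave 0.20 for Mbp, 0.11 for Gad1, -0.29 for Sox5, -0.14 for Slc12a2, -0.29 for Grin2b, -0.10 for Scn2a and -0.04 for Gabra2. Quantile normalization gave -0.16 for Sox5 and -0.22 for Scn2a, centring -0.11 and -0.19, and the 18S covariate 0.04 for Syt6. With 1 array left out, Sox5 lay between -0.24 and 0.52, Syt6 lay between -0.74 and 0.62, Scn1a lay between -0.79 and 0.13, Scn2a lay between -0.11 and 0.23 and Scn3a between -0.50 and 0.10.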
